A study of Arabidopsis thaliana with 12 samples.

Results

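The regions described here are 417 exons of 350 Arabidopsis thaliana genes that the authors' deposited alternative 5′ splice site tables list with a splice junction ending inside the exon. An exon was kept when the junction reads summed to 10 or more in at least 1 of the 6 libraries of a table, out of 3393 exons listed in the 4 tables together. Each kept exon is called a member. The tables list every exon of a transcript in which the authors called a difference, so most of the 3393 exons had no such junction reads. No exon had a highest library value of exactly 10 or 11. The members nearest to the minimum began at 12 reads, in DHDPS2, with means of 4.00 reads in atcyp18-1 normal and 0 in WT normal. The exons just outside it had 9 reads at most, 11 exons over the 4 tables, with group means between 0 and 5.67 reads.

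Seeds of the mutant atcyp18-1 and of the wild type (WT) were stratified at 4 °C for 2 days and sampled 1 day after imbibition, either after heat stress at 45 °C for 2 h or under normal conditions. The groups were atcyp18-1 heat, atcyp18-1 normal, WT heat and WT normal, with 3 libraries of polyA RNA each. AtCYP18-1 is a cyclophilin, a class of peptidyl-prolyl isomerases. The labels name neither the kind of mutant allele nor the origin of the 3 libraries of a group, so the p-values may measure only a technical spread.

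A gene-level check used the count table of the whole genes, in which the libraries held between 7468922 reads (atcyp18-1 heat library 3) and 10506481 reads (WT heat library 3). CYP18-1 (AT1G01940) had 33, 15 and 26 reads in atcyp18-1 heat against 231, 213 and 259 in WT heat, and 21, 18 and 15 in atcyp18-1 normal against 221, 216 and 244 in WT normal. Its normalised level in the mutant was 13.2% of that in WT with heat and 8.75% without (exact permutation test, two-sided, p = 0.1 for each, the smallest value that 3 against 3 libraries allow). All 10 seed storage and embryo markers on the list were measured, and 10 of 10 were higher in atcyp18-1 normal than in WT normal (edgeR quasi-likelihood test, adjusted p under 0.05). Their summed level in CPM (reads of a gene scaled to equal library totals) was 7611 to 9022 in atcyp18-1 normal and 2351 to 3792 in WT normal. With heat it was 6876 to 10752 CPM in atcyp18-1 heat and 2876 to 5292 in WT heat, and 5 of 10 markers were called higher in the mutant. None of the 3 flower markers or 2 root hair markers passed the filter on low counts. With heat, 8 of 10 were called higher in WT heat than in WT normal (median log2 change 0.76), and 3 of 10 in atcyp18-1 heat than in atcyp18-1 normal (0.22). The part of the seed markers in the genotype and heat results below was not tested.

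Introns are removed by the spliceosome, which joins a 5′ splice site (the donor, at the start of the intron, usually GT) to a 3′ splice site (the acceptor, at its end, usually AG). Where a gene has competing donors or acceptors, the choice adds or removes bases at an exon edge, and a shift that is no multiple of 3 within coding sequence changes the reading frame. In plants, heat is known to alter splicing widely, with intron retention the most common form.

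The label of the tables held for part of the members. In every member the junction's higher-coordinate end lay inside the listed exon, whatever the strand of the gene. On plus-strand genes that end is the acceptor, which applied to 218 members (52.3%), and on minus-strand genes it is the donor, which applied to 197 members (47.2%). The other 2 members lie in the organelle loci ATCG00790 and ATMG01170, for which no strand was matched. In 19 members of 16 genes, 4 on plus and 15 on minus strands, the main junction read GT-AG only on the strand opposite to the gene, so the kind of site is reversed and the junction cannot be tied to that gene. On the gene's own strand there were thus 182 donor members and 214 acceptor members. Of these, 136 donors and 177 acceptors lay outside the lowest-coordinate exon of their transcript, and only those 136 can be alternative donors in the usual sense. Acceptor and donor below are named by the gene's strand. The authors' alternative 3′ splice site tables showed the mirror image, with 445 exons over the same read minimum, 218 on plus and 225 on minus strands, all of these with the lower-coordinate end inside the exon.

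The 417 members rested on 444 distinct junctions, of which 386 are annotated introns in the TAIR10.1 reference and 58 are not. Of the 440 junctions with a strand, 406 (92.3%) had the bases GT-AG at their ends, 8 had GC-AG, 1 had AT-AC, 21 read GT-AG on the strand opposite to the gene and 4 had other ends. One junction accounted for 367 members, and 50 members had several. Members are not all independent, since 34 junctions were shared by several members and 52 genes held more than 1 member. In 284 members (68.1%) the main junction belonged to the gene's first annotated transcript model, and the listed exon edge was that of another model. In these members the counted junction is therefore an intron of the first model, and the other site of the pair is the one that the listed exon uses.

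The sites are shown for the members with the most reads in more than one comparison and for most of the largest differences in each direction. All are from the TAIR10.1 reference sequence of RefSeq, in the direction of the gene, 5′ to 3′. In the first set the donor pairs lie 4 bases apart on minus-strand genes. The first capitals are the donor of the counted junction and the second are the donor of the listed exon.
EIF4A1, chr3:4594047-4594070, minus strand: tcaatgaagtGTgaGTctttttac
AT1G63770, chr1:23658402-23658425, minus strand: cccaaacaagGCaaGTgaattctc
EMB2107, chr5:3089897-3089920, minus strand: catcgaacatGTaaGTctctcaat
ILA, chr1:24073116-24073139, minus strand: acttacagagGTgtGTatgtatgt
AT5G39580, chr5:15847996-15848019, minus strand: actcttgttgGTatGTaacctata

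The second set holds acceptor pairs on plus-strand genes. Here the first capitals are the acceptor of the listed exon and the second are the acceptor of the counted junction, 3 to 36 bases further downstream.
XERO1, chr3:18942500-18942528, plus strand: cgattttcatgcatgaAGgAGgatgatgg
AT5G16130, chr5:5268958-5268987, plus strand: ttttgtttcctttaAGatctgtgaAGatgt
HAP6, chr4:11278618-11278647, plus strand: ctgtttttttgAGttttcttatgcAGtgat
NOXY38, chr3:19335887-19335948, plus strand: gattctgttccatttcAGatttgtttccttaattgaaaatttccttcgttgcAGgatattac

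In the third set the sites are far apart or the junction starts outside the listed transcript, and only the site of the counted junction is capitalised. The INVH site reads CT in the direction of the gene, which is an AG on the other strand.
scpl20, donor, chr4:7550866-7550885, minus strand: aagtcgcgggGTaataattc
Phox3, donor, chr5:6882044-6882063, minus strand: tcatttcaagGTacatatat
ASD1, donor, chr3:3365135-3365154, minus strand: gattccagagGTttgtttct
AT5G05550, donor, chr5:1639814-1639833, minus strand: agtgcttcagGTaagaagaa
AT3G13580, acceptor, chr3:4433789-4433814, plus strand: tggctatgtaatttacAGaaatgact
XTH4, acceptor, chr2:2764266-2764291, plus strand: acatgtgtataaaaacAGgcacagga
AT1G33790, acceptor, chr1:12259310-12259335, plus strand: ctaaatttgactaccaAGgtggttca
INVH, chr3:1733069-1733088, minus strand: taacaacttcCTgttgcaac

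The distance between both sites of a pair was not used to choose the members. It was set beside all annotated introns of the reference that end inside another exon of their locus, counted once for each such exon as an intron-exon pair. Most members' junctions are annotated introns themselves, so this background is not separate from the members. Among 321 members in an exon other than the lowest-coordinate one, 178 were acceptors with a median distance of 15 bases, and 142 were donors with a median of 93 bases. A distance of 3 bases was the most frequent for acceptors, in 43 of 178 (24.2%) against 416 of 2951 annotated intron-exon pairs (14.1%). In 42 of these 43 the bases were NAGNAG, the tandem acceptor motif, read on the gene's strand. A distance of 4 bases was the most frequent for donors, in 16 of 142 (11.3%) against 161 of 2371 annotated intron-exon pairs (6.79%), and 11 of the 16 had the bases GTNNGT. Without junctions on the opposite strand these were 43 of 177 acceptors and 16 of 136 donors, with medians of 15 and 110.5 bases.

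Inside coding sequence the distances kept the frame more often in acceptors than in donors. A member counts as inside coding sequence only if every base between both sites is coding, which favours short distances by definition. Of 106 acceptor members inside coding sequence, 77 (72.6%) were apart by a multiple of 3 bases and 37 by exactly 3. Of 52 donor members inside coding sequence, 26 were apart by a multiple of 3 and 13 by exactly 4, a distance that changes the frame. Among acceptors outside coding sequence, 21 of 48 (43.8%) were apart by a multiple of 3. In the annotated background, coding or not, it was 49.9% for acceptors and 39.9% for donors. These shares are descriptions of the listed exons and were not tested. The remaining 96 members lay in the lowest-coordinate exon of their transcript, 40 acceptors and 55 donors and 1 organelle locus. There the junction starts outside that transcript, so these members mark another transcript end and no pair of competing sites.

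**Figure D1:**
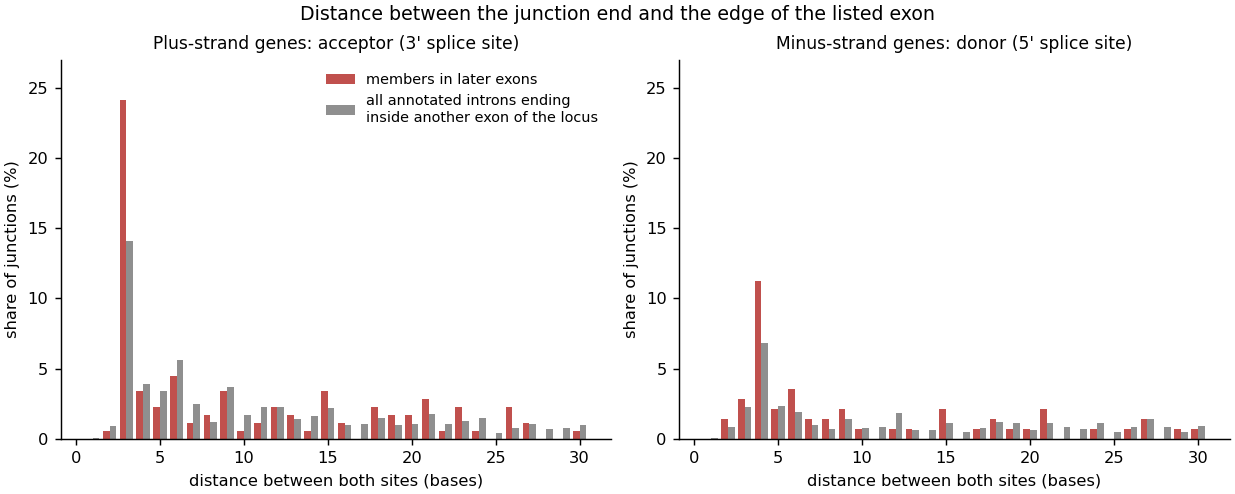
Distance in bases (x axis) between the end of the counted junction and the edge of the listed exon, as the share of junctions in percent (y axis), for acceptors on plus-strand genes (left) and donors on minus-strand genes (right); red bars are members outside the lowest-coordinate exon and grey bars are all annotated introns that end inside another exon, counted once for each such exon. The red bars peak at 3 bases for acceptors (24.2%, grey 14.1%) and at 4 bases for donors (11.3%, grey 6.79%).

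The bases around both sites of a pair differed from each other. At the donor of the counted junction the last exon base was G in 79.5% of 127 sites, and at the donor of the listed exon in 47.7% of 132 sites, with 76.0% over all annotated donors on minus strands. The fifth intron base, which pairs with the U1 RNA in donor recognition, was G in 62.2% at the junction's donor, 34.8% at the listed exon's donor and 49.7% over all annotated donors. Part of that difference is built in, since a GT 4 bases downstream places a G at the fifth base. At the acceptor of the counted junction the base before AG was C in 66.5% of 164 sites, and at the acceptor of the listed exon in 30.4% of 171 sites, with 62.9% over all annotated acceptors on plus strands. The first exon base was G in 49.4% at the junction's acceptor, 21.1% at the listed exon's acceptor and 50.5% over all annotated acceptors. In the last exon base of donors and in the base before AG and the first exon base of acceptors, the counted sites were nearer to all annotated sites than the listed exons' edges were. In other measures they were not. Pyrimidines made up 59.6% of the intron bases 5 to 15 before the junction's acceptor, 62.2% before the listed exon's acceptor and 63.9% over all annotated acceptors, and the donor began with GT in 95.3%, 97.7% and 98.6%, in the same order.

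Most members had fewer junction reads, not scaled for depth, in the group named first of each comparison, that is with heat and in the mutant. The authors' table of heat in WT gave 212 members in 181 genes, of heat in the mutant 173 members in 148 genes, of genotype without heat 85 members in 67 genes and of genotype with heat 65 members in 58 genes. The authors had called 196, 162, 79 and 59 of these, in that order. Over all exons in the tables their calls covered 9.39%, 10%, 10.9% and 14.2%. According to the authors' deposited table, a called exon had a ratio of group means of at least 1.7 and an unadjusted p-value of at most 0.0498. The members were chosen from these calls, so the differences in junction reads below are descriptions without a test. A junction value of 0 means that no junction with at least 6 reads was listed, since 6 was the lowest sum above 0 in any library.

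In WT heat against WT normal, junction reads were lower in 187 of 212 members and higher in 24. In atcyp18-1 heat against atcyp18-1 normal they were lower in 168 of 173 and higher in 5. In atcyp18-1 normal against WT normal they were lower in 62 of 85 and higher in 23, and in atcyp18-1 heat against WT heat lower in 60 of 65 and higher in 5. The 3 libraries of each group did not overlap in 199, 164, 81 and 59 members, in the same order of comparisons. Nearly all members had been called by the authors on these same libraries, so these counts mostly follow from the choice. The share over all listed exons was not counted. The median log2 change of the mean junction reads, with 1 added to each mean, was -1.24, -1.29, -1 and -1.04.

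The authors compared junction reads without dividing by the gene's own reads. Scaled for depth by edgeR, the tested member genes had median log2 changes of -0.55, -0.48, -0.33 and -0.28. The gene counts, unscaled like the junction reads and used below, had larger falls. Their median log2 changes were -0.71, -0.81, -0.42 and -0.58 over the members. The junction change minus the gene change had a median of -0.58 in WT heat against WT normal, -0.43 in atcyp18-1 heat against atcyp18-1 normal, -0.45 in atcyp18-1 normal against WT normal and -0.51 in atcyp18-1 heat against WT heat. The standard deviation of that median over the 3 libraries of the first-named group was 0.034, 0.059, 0.058 and 0.22. The means of the second-named group were held fixed in it, so the spread of that group is not included. The members were chosen on the undivided junction reads of these same libraries, so the sign of these medians follows in part from the choice. After division by the gene count the junction was still at least 1.7-fold lower in 89 members and 1.7-fold higher in 7 in the heat comparison of WT, and in 55 and 2 in that of the mutant. In the genotype comparisons it was 30 and 11 without heat and 19 and 1 with heat. These counts include members whose junction reads exceed the count of their gene, for which the division has no meaning. Without them 85 were lower and 7 higher with heat in WT, 53 and 2 with heat in the mutant, 28 and 9 between the genotypes without heat, and 18 and 0 with heat. Opposite-strand members, 11, 7, 7 and 5 in the 4 comparisons, were left out there only where their junction reads exceed the gene count. The others are still divided by a gene to which their junction cannot be tied. With 5 instead of 1 added to the junction means, the totals of 96, 57, 41 and 20 became 54, 30, 22 and 9. In bulk seeds, fewer cells that make a transcript and less of it per cell cannot be told apart.

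**Figure D2:**
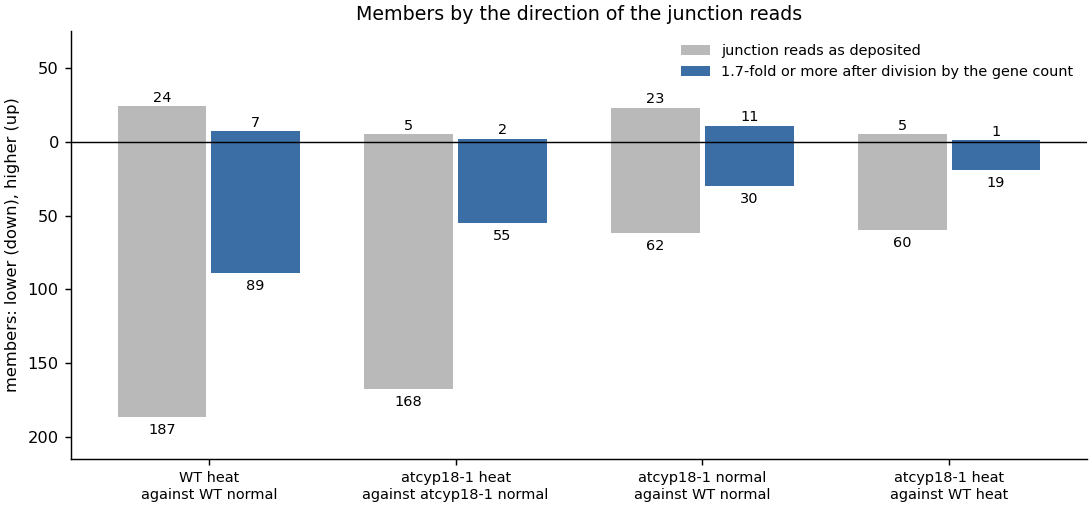
Number of members (y axis) with lower junction reads (bars down) and higher junction reads (bars up) in each of the 4 comparisons; grey bars count any difference of the group means, unscaled for depth, and blue bars those of at least 1.7-fold after division by the gene count. In WT heat against WT normal 89 of 187 lower members and 7 of 24 higher members are in the blue bars, and the 1 higher member of atcyp18-1 heat against WT heat is an INVH member with more junction reads than gene reads.

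The gene counts contain the junction reads, so called genes and the edgeR values of single genes describe the gene and are set here only beside the share over all genes. Calls in either direction covered 50.1%, 46.3%, 23.4% and 16.7% of all genes in the 4 comparisons. With edgeR's quasi-likelihood test (adjusted p under 0.05), 124 of 179 tested member genes were lower and 24 higher in WT heat than in WT normal, where 25.1% and 25% of 17296 genes were. In atcyp18-1 heat against atcyp18-1 normal, 102 of 145 were lower and 5 higher, beside 23.4% and 22.9% of all genes. In atcyp18-1 normal against WT normal, 35 of 65 were lower and 9 higher, beside 12.2% and 11.2%. In atcyp18-1 heat against WT heat, 25 of 56 were lower and 4 higher, beside 8.49% and 8.17%. The last total, 29, was 18 without library 3 of atcyp18-1 heat.

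The genes of 1 table were also tested in the libraries of another table that shares no library with it. Of the genes with members in the table of heat in WT, 179 were tested in the mutant, and 105 (58.7%) were called lower in atcyp18-1 heat than in atcyp18-1 normal and 24 (13.4%) higher. Among the 126 of them that had no member in the mutant's own table, 60 (47.6%) were called lower and 22 (17.5%) higher, beside 23.4% and 22.9% of all genes. In the other direction, 92 genes had members only in the mutant's table, and 51 (55.4%) of them were called lower in WT heat than in WT normal and 4 (4.35%) higher. For the genotype without heat, 58 genes had members in that table alone, and with heat 11 of them were called lower in atcyp18-1 heat than in WT heat and 8 higher, beside 8.49% and 8.17% of all genes. For the genotype with heat, 49 genes had members in that table alone, and 20 (40.8%) were called lower in atcyp18-1 normal than in WT normal and 0 higher, beside 12.2% and 11.2%. For the sets with members in 1 table alone, the tested libraries had a part in the choice, since genes with a member in the other table were left out. A member gene needs a junction with 10 reads, which the other genes do not, and the part of expression level in these shares was not tested.

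**Figure D3:**
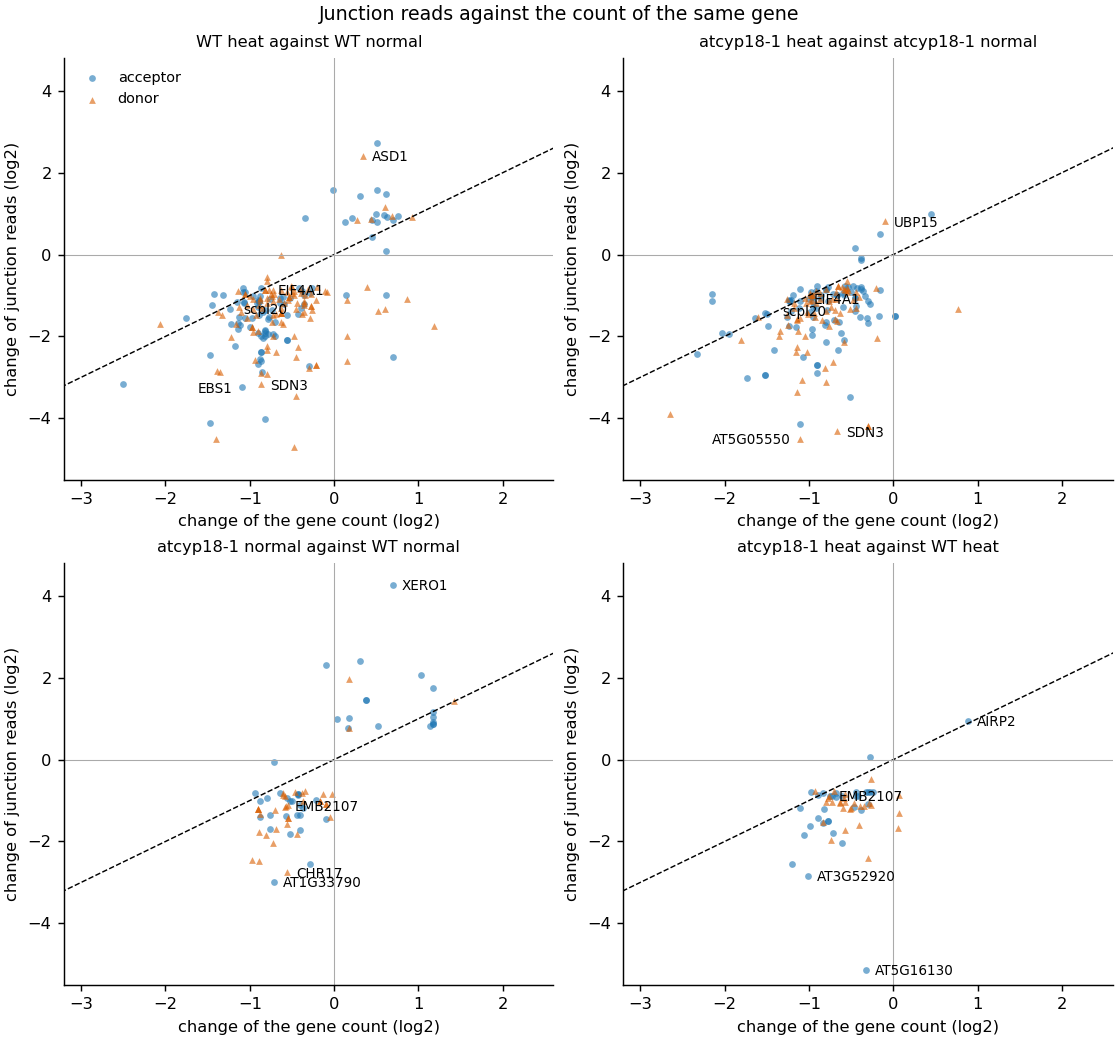
Log2 change of the gene count (x axis) and of the junction reads (y axis, 1 added to each group mean) for each member in the 4 comparisons, with acceptors as blue circles and donors as orange triangles, and members whose junction reads exceed the gene count left out; on the dashed line the junction changed as much as its gene. Neither change is scaled for depth. Most points lie below 0 on both axes and below the dashed line, EIF4A1 lies near the line, and XERO1 and AT5G16130 lie far from it.

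Both kinds of site had lower junction reads in most members. In WT heat against WT normal, 81 of 98 acceptors and 105 of 112 donors had lower junction reads, with median junction changes minus gene changes of -0.55 and -0.68. In atcyp18-1 heat against atcyp18-1 normal these medians were -0.40 for 94 acceptors and -0.46 for 77 donors. Without heat the genotype medians were -0.31 for 43 acceptors and -0.59 for 41 donors, and with heat -0.48 for 33 and -0.58 for 32. These include opposite-strand junctions, for which the kind of site is reversed. Without those, the medians with heat in WT were -0.54 for 94 acceptors and -0.63 for 105 donors. With heat in the mutant they were -0.39 for 92 and -0.45 for 72. For the genotype they were -0.30 for 42 and -0.63 for 35 without heat, and -0.47 for 32 and -0.63 for 28 with heat. Members with sites at most 12 bases apart gave -0.58, -0.40, -0.36 and -0.44 over 62, 51, 24 and 18 members. Members were also split by whether their junction is in the first transcript model. In atcyp18-1 normal against WT normal the median was -0.59 for the 57 with such a junction and 0.06 for the 28 others. The other comparisons had no such gap. The medians were -0.59 for 147 and -0.55 for 65 others with heat in WT. With heat in the mutant they were -0.40 for 124 and -0.47 for 49 others. Between the genotypes with heat they were -0.59 for 37 and -0.48 for 28 others.

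Of the 417 members, 107 were in more than one table. Of these, 96 were in 2 of the tables and 11 in 3 tables. The tables of heat in WT and in the mutant share no library. They had 59 members in common, 27.8% of the WT table and 34.1% of the mutant table, and 58 of these had lower and 1 had higher junction reads with heat in both. The genotype tables without and with heat also share no library and had 10 members in common, 11.8% and 15.4%, of which 6 were lower and 4 higher in the mutant in both. The 4 higher ones include 2 INVH members that share 1 junction. That junction reads GT-AG on the opposite strand and cannot be tied to INVH. The other pairs of tables share a group, and their 60 common entries are not read further.

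Among the recurrent members with the most reads, some followed the count of their gene closely. EIF4A1, an RNA helicase of translation initiation, had 729, 642 and 859 reads in WT heat against 1316, 1144 and 1594 in WT normal on a donor 4 bases upstream of the listed exon's edge. In the mutant it had 754, 591 and 659 reads in atcyp18-1 heat against 1292, 1499 and 1427 in atcyp18-1 normal. Heat and normal libraries did not overlap in either genotype. Per 1000 reads of the gene, however, it was 183.3 ± 5.0 in WT heat and 195 ± 3.9 in WT normal, and 184 ± 12.5 in atcyp18-1 heat and 187 ± 8.4 in atcyp18-1 normal (SD, n = 3). The gene itself fell with heat, by 0.60 on the log2 scale in WT (SE 0.07, adjusted p = 4.3e-07) and by 0.68 in the mutant (SE 0.07, adjusted p = 9.5e-08, edgeR).

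AT3G13580, a ribosomal protein of the L30/L7 family, had 2 members that share a junction. The exon starting at base 4433519 had 166, 143 and 195 reads in WT heat against 389, 340 and 417 in WT normal, and 192, 145 and 148 in atcyp18-1 heat against 334, 392 and 346 in atcyp18-1 normal. Its reads per 1000 gene reads were 147 ± 18.8 in WT heat and 160 ± 3.8 in WT normal, and 167 ± 4.6 in atcyp18-1 heat and 157 ± 6.0 in atcyp18-1 normal. The junction and the gene were thus about as much lower with heat as each other. ILA, HAP6 (ribophorin II, a subunit of oligosaccharyltransferase), XTH4 (a xyloglucan endotransglucosylase of the cell wall) and AT5G39580 (a peroxidase) had junction changes minus gene changes between -0.38 and -0.13 in WT and between -0.14 and 0.12 in the mutant. XTH4 had the lowest of these in WT, -0.38, near the -0.43 of AT1G63770.

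The serine carboxypeptidase-like gene scpl20 did not follow its gene. Its donor in the lowest-coordinate exon had 959, 878 and 816 reads in WT heat against 2112, 2058 and 2477 in WT normal, and 617, 520 and 415 in atcyp18-1 heat against 1096, 1509 and 1392 in atcyp18-1 normal. Per 1000 gene reads it was 94.9 ± 6.2 in WT heat and 175 ± 6.2 in WT normal, and 89.8 ± 7.7 in atcyp18-1 heat and 144 ± 8.6 in atcyp18-1 normal. The 3 heat libraries were below the 3 normal libraries in both genotypes on this scale. The gene count fell by 0.27 on the log2 scale in WT (SE 0.07, adjusted p = 0.0040, edgeR). In the mutant against WT with heat the junction was at 89.8 ± 7.7 and 94.9 ± 6.2 per 1000 gene reads.

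AT1G63770, a peptidase of the M1 family with a GC donor, had 230, 244 and 225 reads in WT heat against 434, 375 and 498 in WT normal. In the mutant it had 188, 155 and 158 reads in atcyp18-1 heat against 277, 388 and 281 in atcyp18-1 normal. Per 1000 gene reads it was 36.2 ± 4.3 in WT heat and 48.4 ± 1.1 in WT normal, and 28.8 ± 1.4 in atcyp18-1 heat and 36.9 ± 3.8 in atcyp18-1 normal. The heat libraries were lower than the normal ones in reads in both genotypes. NOXY38, known as FRIENDLY and needed for the distribution of mitochondria, had an acceptor with 94, 119 and 112 reads in WT heat against 250, 177 and 283 in WT normal, and 111, 80 and 68 in atcyp18-1 heat against 214, 237 and 234 in atcyp18-1 normal. Its junction change minus gene change was -0.22 in WT and -0.40 in the mutant.

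In the plastid gene ATCG00790 for ribosomal protein L16, the listed exon had 82, 40 and 44 reads in WT heat against 220, 269 and 290 in WT normal, and 13, 6 and 20 in atcyp18-1 heat against 137, 174 and 126 in atcyp18-1 normal. The gene fell by 2.40 on the log2 scale in both genotypes (SE 0.09 and 0.10, adjusted p = 1.3e-14 and 2.3e-14, edgeR). In plastids a poly(A) tail marks RNA for decay, and the RNA measured here was polyA RNA.

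EMB2107, the proteasome subunit RPN5, was the recurrent member with the most reads among those of both genotype tables. Its donor had 157, 95 and 111 reads in atcyp18-1 heat against 222, 227 and 223 in WT heat, and 96, 149 and 126 in atcyp18-1 normal against 231, 271 and 309 in WT normal. All mutant libraries were below all WT libraries. The gene count was also lower, by 0.43 on the log2 scale with heat (SE 0.08, adjusted p = 0.0014) and by 0.45 without (SE 0.08, adjusted p = 0.00064, edgeR). Per 1000 gene reads the junction was at 140 ± 28.3 in atcyp18-1 heat and 153 ± 6.6 in WT heat, where libraries overlapped, and at 117 ± 17.79 in atcyp18-1 normal and 172 ± 23.9 in WT normal.

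**Figure D4:**
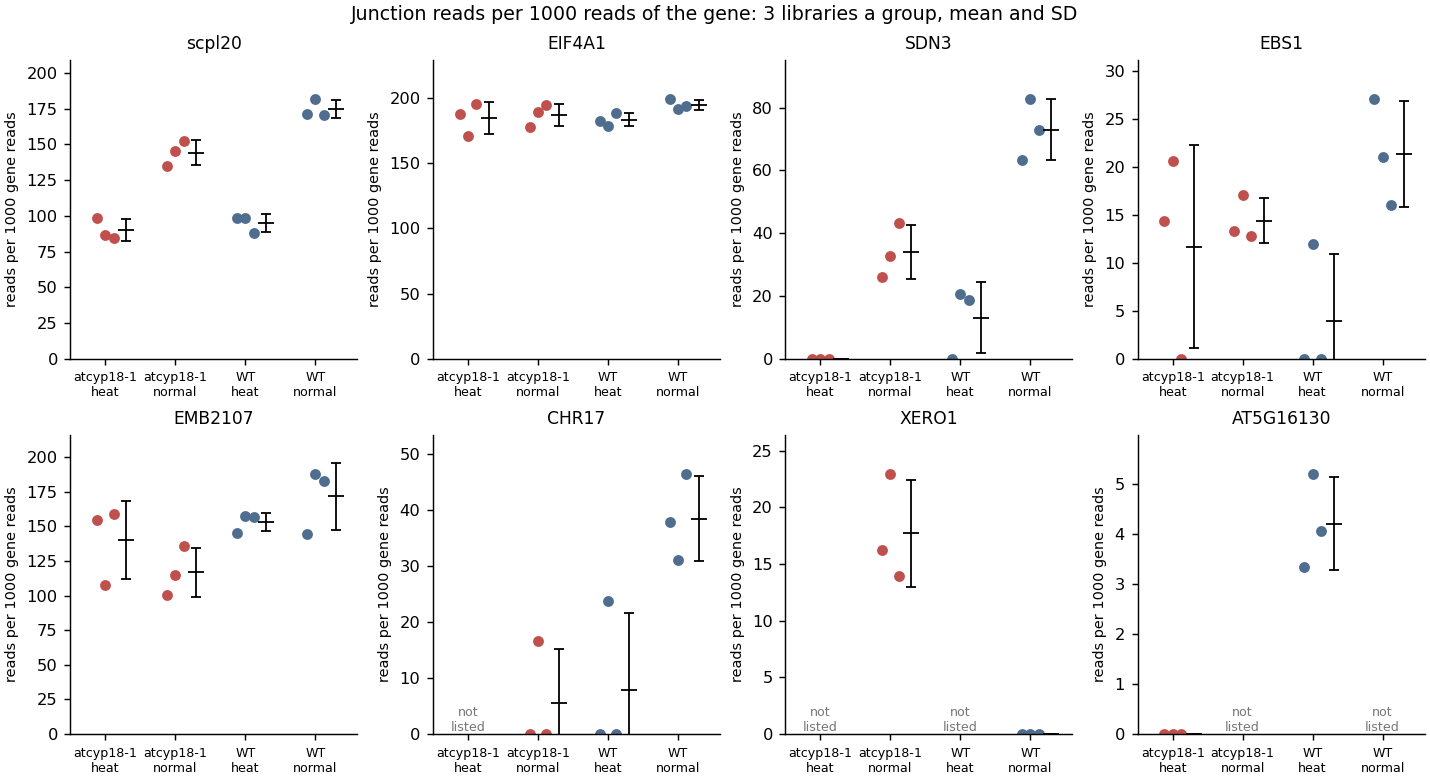
Junction reads per 1000 reads of the gene (y axis) in each library of the 4 groups (x axis) for 8 members, with red points for atcyp18-1, blue points for WT, and the mean and SD of 3 libraries in black; a group whose table does not list the exon is marked as not listed, and 0 stands for fewer than 6 reads. EIF4A1 stays between 183.3 and 194.8 in the group means, scpl20 is lower with heat in both genotypes, and AT5G16130 is at 0 in atcyp18-1 heat.

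The members with the largest differences had few reads. With heat in WT, Phox3 had 0, 0 and 0 reads in WT heat against 18, 20 and 27 in WT normal on a donor 288 bases inside the listed exon. AT2G21520, a Sec14p-like lipid transfer protein, had 0 in each WT heat library against 21, 15 and 13 in WT normal, and SYD, a chromatin remodeling ATPase, had 0 in each against 14, 13 and 19. These 3 were listed in no WT heat library. EBS1, a glucosyltransferase of protein folding control in the endoplasmic reticulum, had 0, 8 and 0 reads in WT heat against 43, 30 and 28 in WT normal on a tandem acceptor 3 bases from the exon edge. The EBS1 gene fell by 0.92 on the log2 scale (SE 0.07, adjusted p = 1.1e-09, edgeR), and the junction per 1000 gene reads was 4.0 ± 6.9 in WT heat and 21.3 ± 5.5 in WT normal.

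SDN3, a nuclease that degrades small RNAs, was among the lowest in both heat comparisons. Its donor had 0, 10 and 11 reads in WT heat against 60, 66 and 87 in WT normal, and 0, 0 and 0 in atcyp18-1 heat against 12, 23 and 22 in atcyp18-1 normal. Per 1000 gene reads it was 13.2 ± 11.4 in WT heat and 72.9 ± 9.7 in WT normal, and 33.9 ± 8.6 in atcyp18-1 normal. The order of the groups was thus the same on both scales, with WT normal highest. SDN3 was also a member of the table of genotype without heat, which shares the normal libraries.

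In the mutant with heat, AT5G05550, a DNA-binding transcription factor, had 0 reads in each heat library against 19, 19 and 27 in atcyp18-1 normal. SRF8, a STRUBBELIG family receptor kinase, had 0 in each against 22, 15 and 13. AT3G26890 had 0 in each against 12, 25 and 15, counted in 2 members that share the junction. The AT3G26890 gene count did not pass the test (log2 change 0.08, SE 0.10, adjusted p = 0.52, edgeR), so the junction was lower where the gene was not called.

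Fewer members had more reads with heat. In WT these included ASD1, an arabinofuranosidase, with 12, 12 and 21 reads in WT heat against 6, 0 and 0 in WT normal. FBP, a fructose bisphosphatase, had 41, 53 and 41 against 16, 0 and 27, and AT5G55840, a pentatricopeptide repeat protein, had 20, 20 and 17 against 6, 0 and 11. The heat libraries were above the normal ones in each. GCN2, the kinase that phosphorylates translation factor eIF2α, had 21, 17 and 16 reads in WT heat against 0, 11 and 7 in WT normal on a tandem acceptor, and its gene rose by 0.48 on the log2 scale (SE 0.09, adjusted p = 0.00015, edgeR). AT5G47970 had 25, 24 and 26 reads in WT heat against 14, 15 and 10 in WT normal, on a junction that reads GT-AG on the opposite strand and so cannot be tied to this gene.

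The polyubiquitin gene UBQ10 showed how members of one gene can differ. The member in the exon starting at base 2719002, with an unannotated main junction, had several junctions. Their reads summed to 152, 200 and 191 in WT heat against 42, 66 and 84 in WT normal. Another UBQ10 member had 0, 0 and 14 against 13, 0 and 18, and a further one had 178, 60 and 126 against 49, 139 and 154. UBQ10 encodes repeats of near-identical sequence, so the place of its junction reads is uncertain. Its gene count rose by 0.79 on the log2 scale (SE 0.07, adjusted p = 4.5e-09, edgeR).

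In the mutant, 5 members had more reads with heat, and in 3 of them the libraries did not overlap. UBP15, a ubiquitin-specific protease, had 58, 66 and 54 reads in atcyp18-1 heat against 34, 36 and 30 in atcyp18-1 normal. HTA11, an H2A.Z histone, had 27, 26 and 34 against 18, 9 and 15. ATMG01170, the mitochondrial gene of an ATP synthase subunit, had 162, 104 and 108 against 38, 39 and 72, and it was the member higher with heat in both genotypes, with 111, 95 and 125 reads in WT heat against 39, 35 and 54 in WT normal.

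Between the genotypes without heat, AT1G33790, a jacalin lectin, had 0, 0 and 10 reads in atcyp18-1 normal against 19, 42 and 39 in WT normal. CHR17, an ISWI chromatin remodeler, had 0, 8 and 0 against 21, 18 and 32, and its gene was lower by 0.43 on the log2 scale (SE 0.10, adjusted p = 0.0051, edgeR). AT2G20320 (a DENN domain protein) had 0, 6 and 0 against 15, 21 and 14, with a gene count that did not pass the test (log2 change -0.15, SE 0.11, adjusted p = 0.33). All 3 were below every WT library. A second AT1G33790 member, in the exon starting at base 12259580, did not follow the first. It had 44, 77 and 43 reads in atcyp18-1 normal against 88, 0 and 84 in WT normal, and its junction change minus gene change was 0.65. AT3G47590 (a hydrolase) and AT5G43310 (a COP1-interacting protein-like) had means of 2.0 ± 3.5 and 3.3 ± 5.8 reads in atcyp18-1 normal and 15.67 ± 3.8 and 22.7 ± 1.2 in WT normal. The closest relative of CHR17 among the members, CHR11, was chosen after its values were seen and had 9, 18 and 15 reads in atcyp18-1 normal against 59, 37 and 60 in WT normal on a tandem acceptor.

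The largest difference toward the mutant without heat was in XERO1, a dehydrin of desiccation tolerance. Its unannotated tandem acceptor, shown above, had 15, 25 and 15 reads in atcyp18-1 normal and 0 in each WT normal library. The gene rose by 0.83 on the log2 scale (SE 0.11, adjusted p = 2.7e-05, edgeR). The junction per 1000 gene reads was 16.2, 22.9 and 13.9 in the atcyp18-1 normal libraries and under the listing limit in WT normal. eEF-1Bb1, a subunit of elongation factor 1B, had 21, 19 and 15 reads in atcyp18-1 normal against 0, 8 and 0 in WT normal, also on an unannotated acceptor. AT3G12320 had 19, 29 and 41 against 13, 6 and 0, and its gene rose by 1.16 on the log2 scale (SE 0.18, adjusted p = 0.00011).

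The seed storage protein gene CRA1 held the member with the most reads and was chosen for mention after its values were seen. It had 3659, 4292 and 4766 reads in atcyp18-1 normal against 1892, 965 and 1826 in WT normal on a donor 4 bases from the exon edge. The gene rose by 1.57 on the log2 scale (SE 0.20, adjusted p = 1.5e-05, edgeR), and per 1000 gene reads the junction was at 136 ± 8.2 in atcyp18-1 normal and 135 ± 4.7 in WT normal. The junction and the gene count therefore differed to the same extent.

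Between the genotypes with heat, AT5G16130, a ribosomal protein of the S7e family, had 0 reads in each atcyp18-1 heat library against 29, 38 and 35 in WT heat. Its unannotated acceptor lies 10 bases from the annotated one and made up 4.2 ± 0.9 per 1000 gene reads in WT heat. The gene count did not pass the test (log2 change 0.01, SE 0.07, adjusted p = 0.96, edgeR). AT3G52920 had 0, 0 and 8 reads in atcyp18-1 heat against 36, 16 and 24 in WT heat, and 19, 18 and 11 in atcyp18-1 normal against 35, 28 and 24 in WT normal. The carboxypeptidase-like gene SCPL34 had 7, 0 and 0 against 20, 15 and 21 with heat, and AIR9, a microtubule-associated protein, had 0, 0 and 6 against 11, 14 and 20. In all of these every mutant library was below every WT library. The AIR9 gene count did not pass the test (log2 change 0.03, SE 0.09, adjusted p = 0.83). The opposite-strand junction in AT5G47970 had 9, 0 and 7 reads in atcyp18-1 heat against 25, 24 and 26 in WT heat.

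AIRP2, a ubiquitin ligase of abscisic acid signalling, was higher in the mutant in both conditions. It had 29, 21 and 22 reads in atcyp18-1 heat against 13, 15 and 8 in WT heat, and 40, 37 and 35 in atcyp18-1 normal against 24, 21 and 17 in WT normal. Its gene rose by 1.21 with heat and 1.27 without on the log2 scale (SE 0.12 for each, adjusted p = 7.2e-07 and 4.3e-07, edgeR). The junction per 1000 gene reads was 96.2 ± 4.2 in atcyp18-1 heat and 90.7 ± 32.99 in WT heat, and 154 ± 5.3 in atcyp18-1 normal and 189 ± 39.7 in WT normal. INVH, an invertase gene, had 3 members higher in the mutant, among them 53, 38 and 27 reads in atcyp18-1 heat against 18, 0 and 7 in WT heat. The counts of the INVH gene were 1 to 3 in every library, below its junction reads, and its junctions read GT-AG on the opposite strand, so they cannot be tied to that gene. In all, 10 members of 7 genes had junction reads above the deposited count of the gene in at least 1 library, and dividing by the gene count has no meaning there. AT3G01475 was the other such gene among the largest differences, with 6, 19 and 0 reads in WT heat against 33, 24 and 40 in WT normal.

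CAM1, AT2G40780 and AT5G60570 were among the members whose gene count was lower by more than the junction reads. CAM1, which encodes calmodulin, had 273, 179 and 169 reads in atcyp18-1 heat against 358, 349 and 356 in WT heat, and its junction change minus gene change was 0.16. AT2G40780, an OB-fold nucleic acid-binding protein, had 26, 28 and 19 against 34, 50 and 45, with a value of 0.18. AT5G60570, a kelch repeat protein, had 11, 16 and 6 reads in atcyp18-1 heat against 20, 27 and 29 in atcyp18-1 normal in the exon starting at base 24348170, with a value of 1.02, and its gene fell by 1.78 on the log2 scale (SE 0.13, adjusted p = 5.3e-10, edgeR).

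The short lists of splicing, heat shock and clock genes used here held no members. With 345 tested member genes beside 17296 tested genes, lists of this length would hold few members or none in any case. The lists are not complete, since LSM6A, described as a small nuclear ribonucleoprotein family protein, is a member gene outside them. None of the 20 SR proteins, 16 genes of 5′ splice site recognition, 14 splicing regulators, 53 heat shock genes or 23 circadian clock genes on the lists had one. In the gene counts, 11 of 20 SR proteins were called higher and 0 lower in WT heat than in WT normal, and 10 and 0 in the mutant with heat. Of the 16 genes of 5′ splice site recognition, 3 were called higher and 7 lower with heat in WT, and 3 and 5 in the mutant. Of the 14 splicing regulators, 6 were called higher and 3 lower in WT, and 6 and 2 in the mutant. Of 52 tested heat shock genes, 44 were called higher and 3 lower in WT, and 45 and 2 in the mutant, and of 23 clock genes 6 and 6 in WT, and 7 and 5 in the mutant. Over all genes 25% were called higher and 25.1% lower with heat in WT, and 22.9% and 23.4% in the mutant.

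The authors' intron retention tables gave another readout, from the same libraries, for some of the same introns. The table of heat in WT lists 2488 introns, of which 92.8% had the higher ratio of intron to exon reads with heat. Introns of 55 of the 181 member genes (30.4%) were in it, beside 7.28% of all tested genes. For the mutant it was 2458 introns, 82.2% higher with heat, with 38 of 148 member genes (25.7%) beside 7.45%. Of the genotype comparisons' member genes, 2 of 67 without heat and 1 of 58 with heat were listed, beside 1.49% and 1.47%. A member gene has introns and enough reads to be listed, and the part of expression level was not tested.

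For 13 members' introns in WT and 9 in the mutant the retained intron was exactly the counted junction, and in each the intron ratio differed in the opposite direction to the junction reads. Of all listed introns 92.8% in WT and 82.2% in the mutant were higher with heat, and most members had fewer junction reads by the way they were chosen. Opposite directions would therefore be found in most such pairs and are no result about these members. Counting also introns that only overlap the junction, there were 20 members in WT, all opposite in direction, and 20 in the mutant. Of those in the mutant DIN10 was lower in both, with an intron ratio of 0.0504 in atcyp18-1 heat and 0.150 in atcyp18-1 normal in the authors' deposited table and a junction log2 change of -0.91. According to the authors' deposited table, the intron of SDN3 had a ratio of 0.408 in WT heat and 0.0956 in WT normal. PIL5, a phytochrome-interacting factor that represses germination, had 29, 32 and 40 junction reads in WT heat against 79, 80 and 76 in WT normal, and in the authors' deposited table its intron ratio was 0.417 in WT heat and 0.120 in WT normal. In the mutant PIL5 had 42, 28 and 25 reads in atcyp18-1 heat against 55, 63 and 57 in atcyp18-1 normal, with ratios of 0.405 and 0.135 in the authors' deposited table. Both readouts thus moved in opposite directions in PIL5 with heat in both genotypes.

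UBP15 was the 1 of these 9 in the mutant with more junction reads. Its intron ratio in the authors' deposited table was 0.1004 in atcyp18-1 heat and 0.305 in atcyp18-1 normal, beside 112 ± 18.9 junction reads per 1000 gene reads in atcyp18-1 heat and 58.4 ± 6.4 in atcyp18-1 normal. RHC1A, a RING finger ubiquitin ligase, had 6, 0 and 0 junction reads in atcyp18-1 heat against 28, 34 and 36 in atcyp18-1 normal, and an intron ratio of 0.536 and 0.148 in the authors' deposited table. The RHC1A gene did not pass the test (log2 change -0.15, SE 0.14, adjusted p = 0.38, edgeR). For scpl20 the ratio in the authors' deposited table was 0.0718 in atcyp18-1 heat and 0.0405 in atcyp18-1 normal. PIL5 and RHC1A were named after their values were seen.

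The heat change of the gene count differed between the genotypes for few member genes. Of 345 tested, 9 (2.61%) passed the test of the difference (edgeR interaction term, adjusted p under 0.05), 7 with the higher and 2 with the lower heat change in the mutant, beside 1.08% of all genes (0.63% higher and 0.451% lower). The number was 0 without a filter on low counts, 0 without WT heat library 2, WT normal library 1, atcyp18-1 heat library 1 or 3, or atcyp18-1 normal library 3, and between 1 and 5 without WT normal library 2 or 3, WT heat library 3 or atcyp18-1 normal library 1. So for most members a different response of the gene in the mutant was not detectable with these libraries.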

How the data were processed

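Per the submitters' processing notes, HTSeq and DESeq were among the tools. For the aligner, genome build and splicing caller, nothing is given in the sources used here. The authors deposited, per the file headers, read counts on splice junctions for each exon and library, unsigned ratios of group means (fold differences) and unadjusted p-values. The ratio was recomputed from the deposited sums for every called exon. Junctions under 6 reads appear as 0. The gene table holds raw read counts, per the file headers, with no value under 1, so each appears to be the count plus 1. In each splicing table the group of a block of 3 libraries was taken from the header of the block's mean and the library number from the block's name. In both heat tables the first header line calls the blocks WT and Mutant, which contradicts the headers of the means and the tables' own comparison. The same library gave the same junction numbers across tables, and different libraries did not. No column of the tables was left without a library. Coordinates fitted TAIR10.1 exons, which were used for strand, transcript models and sequence. The labels describe no strand-specific step, so reads of a gene and of an antisense or overlapping neighbour cannot be separated.

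For the genes, 1 transcript each entered edgeR's quasi-likelihood test (edgeR 4.0.16 in R 4.3.3), after filterByExpr and TMM, with all 4 groups in the fit and Benjamini-Hochberg adjustment over 17296 genes. DESeq2 1.42.0 was an alternative. The script was tested on simulated data. Junction changes are log2 ratios of group means with 1 added, unscaled for depth, and a change that remained at least 1.7-fold after subtracting the log2 ratio of gene counts was counted as kept. Depth limits the precision of junctions, since most values are under 100 reads. Named members are those in several tables (the 12 with most reads), the 5 largest differences in each direction and comparison with a mean of at least 10 reads in the higher group and no overlap, the 3 extremes of junction change minus gene change, and members on the gene lists. Members and lists were chosen with earlier results of these data known. Alternatives were another normalisation, no filter, other read minimums and pseudocounts, and leaving out each library. One gene and its members are not reported here.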

Additional observations from a re-analysis of the deposited data

Results flagged for a closer look

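For 9 member genes the heat change of the gene count differed between the genotypes by a test of that difference (edgeR interaction term, adjusted p between 0.022 and 0.047). The heat change was higher in atcyp18-1 than in WT by 0.66 on the log2 scale in CIPK9, 0.61 in AT1G11660, 0.47 in UBP15, 0.67 in AT2G21520, 0.54 in BGAL8, 0.67 in CHR11 and 0.87 in AT3G07090. It was lower in atcyp18-1, with a difference of -0.56 in RMA1 and -0.53 in AT4G30760. BGAL8, a beta-galactosidase, had junction reads of 20, 0 and 14 in atcyp18-1 heat against 48, 48 and 47 in atcyp18-1 normal, and 15, 10 and 7 in WT heat against 77, 80 and 93 in WT normal. None of the 9 held when the filter on low counts was left out.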

How the results depend on the processing

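Over the main results, 272 values under an alternative kept their direction and side of the threshold and 24 moved; for single genes 1135 did, 22 lost their call, 2 gained one and 0 reversed. With 5 reads added in place of 1, the median junction change minus gene change was -0.42 in WT heat against WT normal, -0.28 in the mutant and -0.38 for the genotype without heat, and the members kept at 1.7-fold were 54, 30, 22 and 9. With each listed 0 set to 5 reads, chosen after seeing the data, the medians with heat were -0.53 in WT and -0.36 in the mutant, and 37 members were kept in the mutant. Leaving out 1 library each gave medians from -0.50 to -0.37 in the mutant with heat and from -0.52 to -0.36 for the genotype without heat. Called member genes for the genotype with heat ranged from 18 to 29, and genes with a genotype difference in the heat change from 0 to 10, with 0 without a filter. The replicate numbers did not pair the samples: of 18 same-numbered pairs 1 had a correlation of deviations above 0.1 (range -0.086 to 0.105). With the replicate block 148, 108, 43 and 29 member genes were called and 11 for the difference in the heat change. Depth limits members with few reads, where 5 reads or fewer are listed as 0.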
